A study of Mus musculus with 12 samples.

Results

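Complement and blood clotting genes were examined in the livers of 12 male obese mice fed either little or standard protein. Members were the rows of the deposited gene matrix whose pathway annotation names the KEGG map of complement and coagulation cascades. The map was carried by 91 of 56980 genes in the matrix, and without the receptor genes Vsig4 and Itgax, which were set aside, 89 members remained. Complement accounted for 41 of them and clotting with its inhibitors and fibrinolysis for 46, while Itgb2l and Zp3r belonged to neither. Of the 89, 76 had enough reads to be tested (36 complement and 40 clotting members). The other 13 were at or near 0 in every liver.

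All mice were B6.Cg-Lepob/J (ob/ob) animals of genotype Lep-/-, which lack leptin, overeat and develop a fatty liver. The low protein diet (LPD) supplied 5% of energy as protein and was eaten by 6 mice, and the standard protein diet (SPD) supplied 25% and was eaten by the other 6. Feeding was unrestricted, started at 8 weeks of age and lasted 3 weeks, so livers were taken at 11 weeks. Both diets therefore share the leptin deficiency and the obesity, and no lean mice were included. Whole liver was sequenced in bulk, with 1 library per mouse.

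Complement is a set of plasma proteins that recognise microbes and damaged cells. Recognition molecules switch on proteases, which cleave the central components, and these coat the target, attract leukocytes and build a membrane pore. Clotting runs through a similar chain of proteases that ends in thrombin and a fibrin mesh, which plasmin later dissolves. Hepatocytes make most of the circulating proteins of both systems, including their inhibitors, while endothelial cells and macrophages make a few.

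Library totals lay between 19404340 and 23681408 counts in LPD livers and between 19374676 and 23710930 counts in SPD livers. The 5 hepatocyte markers summed to 59504 to 84559 CPM (the depth-normalised read count, scaled by TMM) in LPD livers and 69593 to 79813 CPM in SPD livers. Alb, the albumin gene, made up most of that sum and was not called, with a mean of 57232 CPM in LPD livers and 65535 CPM in SPD livers. Of the 5 markers, 3 were higher in LPD livers without overlap and none was lower: Apoa1 (0.43 ± 0.086), Apoh (0.35 ± 0.081) and Serpina3k (0.82 ± 0.11) on the log2 scale (SE, adjusted p 0.001, 0.00287 and 3.31e-05). LPD liver 1 carries the LPD name in its title and library code, whereas its description and treatment labels name the 25% protein diet. Over all tested genes, its mean correlation was 0.984 with LPD livers and 0.975 with SPD livers. The other LPD livers had lower correlations with SPD livers, 0.958 to 0.972. LPD liver 1 stayed in the LPD group. LPD livers 2 and 5 were the least like their diet and had the lowest macrophage marker sums of the 12. Library codes differ between the diets (SP1 and SP2 against LP4 and LP5), so a code and the diet cannot be told apart.

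LPD and SPD livers differed in 36 of the 76 tested members, and the members split in both directions. A total of 19 members were higher in LPD livers and 17 were lower, at an adjusted p under 0.05 in edgeR's quasi-likelihood test. That was 47.4% of the tested members, where 39.9% of all 13768 tested genes were called. Higher members made up 25.0% of those tested, against 20.7% of all genes, and lower members 22.4%, against 19.2% of all genes. The shares of the members thus lay near those of all genes. The median log2 fold change (LPD over SPD) of the members was -0.0066, and that of all tested genes was -0.00059. Levels of the 2 diets did not overlap for 19 members (25.0%), 11 of them higher and 8 lower, and for 19.9% of all genes.

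Among complement members 7 were higher, 9 were lower and 20 were not called, with a median log2 fold change of -0.066. Among clotting members 12 were higher, 8 were lower and 20 were not called, with a median of 0.044. Counting LPD liver 1 as SPD gave 6 higher and 6 lower complement members and 10 higher and 8 lower clotting members. Without LPD livers 2 and 5 the counts were 5 higher and 8 lower for complement and 10 higher and 9 lower for clotting. Calls over all tested genes fell as well, from 5496 in the main fit. They were 4489 with LPD liver 1 as SPD and 4586 without LPD livers 2 and 5. In the livers of codes SP1 and LP4 alone, the calls of C3, Vtn, Masp2, Hc, Cfi, C1s1, Itgb2, Serpind1, F7, F8, F13a1 and Plat were lost. The call was kept under all 21 alternative settings by 21 of the 36 called members (12 higher and 9 lower). In the plot of fold changes by role, called members of opposite sign stand side by side in most roles.

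**Figure D1:**
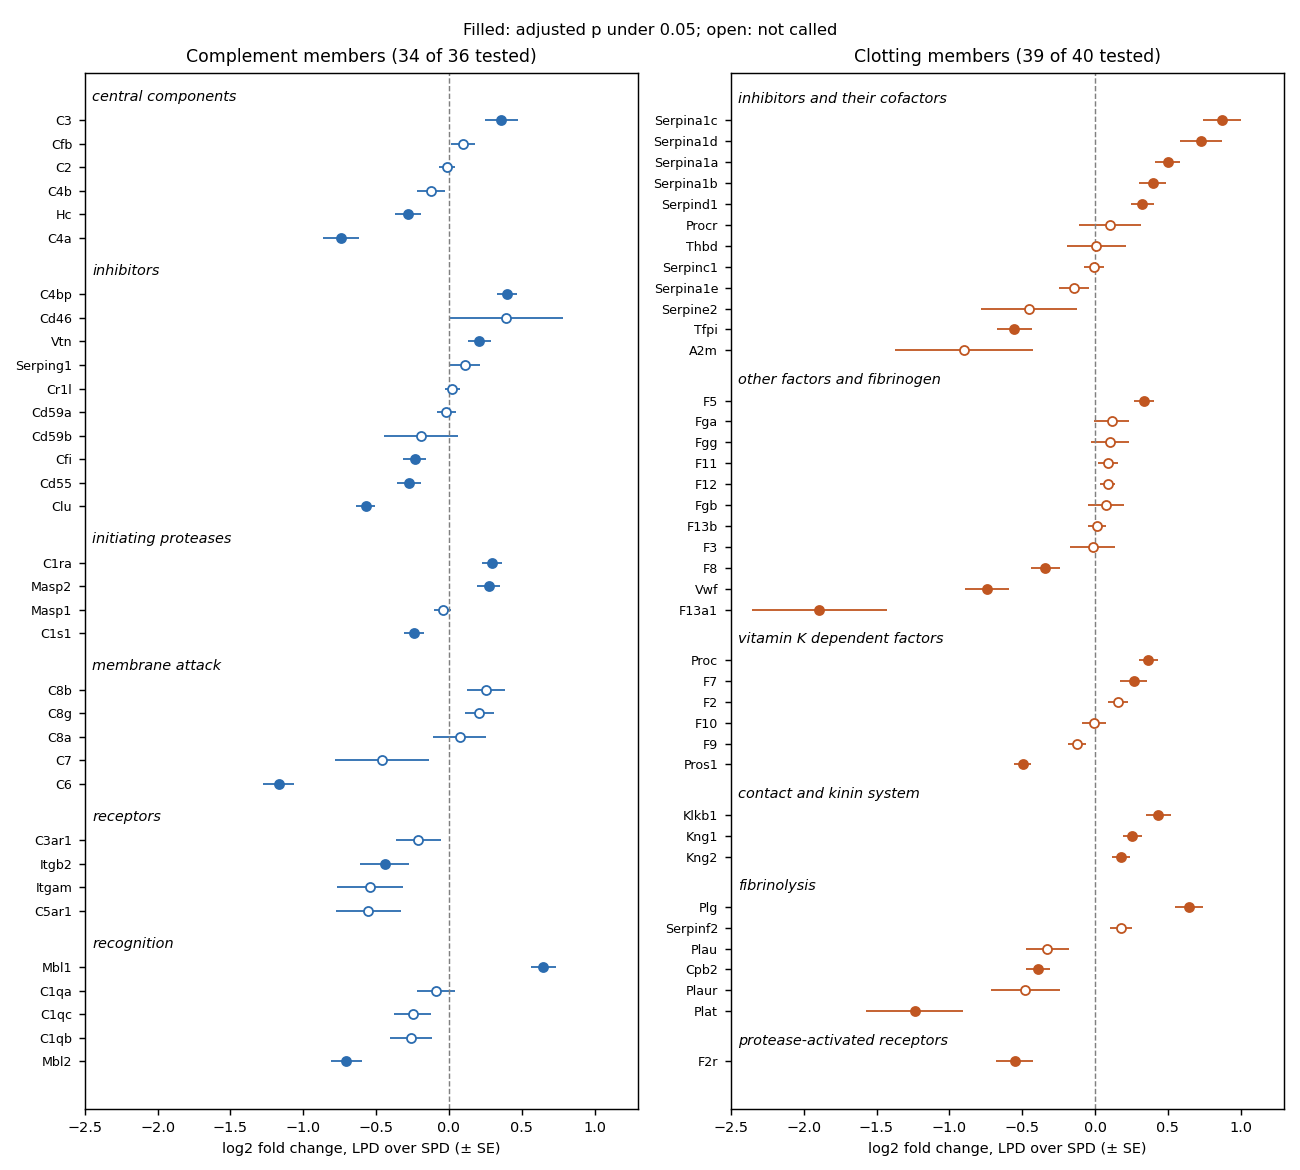
Log2 fold change (LPD over SPD) with its standard error for 34 of the 36 complement and 39 of the 40 clotting members tested, grouped by role; filled points are called at an adjusted p under 0.05. C6 (-1.17) is the lowest complement member and Serpina1c (0.87) the highest clotting member.

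Of the 5 recognition genes, 1 rose, 1 fell and 3 were not called. Mbl1 and Mbl2 encode mannose-binding lectins, which bind sugars on microbes and start the lectin pathway. These paralogs moved in opposite directions. Mbl1 had 140.1 to 194 CPM (median 151) in LPD livers and 95.9 to 119 CPM (median 97.1) in SPD livers. All 6 LPD livers lay above all 6 SPD livers, and LPD livers 2 and 5 were the highest. The log2 fold change was 0.65 ± 0.085 (SE, adjusted p = 3.21e-05). Mbl2 had 112 to 182 CPM (median 165) in LPD livers and 219 to 316 CPM (median 252) in SPD livers. Here every LPD liver lay below every SPD liver, with LPD liver 6 the lowest. Its log2 fold change was -0.70 ± 0.11 (SE, adjusted p = 0.00011). Per kilobase of gene length, the ratio of Mbl1 to Mbl2 was 0.577 to 0.943 in LPD livers and 0.213 to 0.344 in SPD livers. Both genes kept their call in every alternative.

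The start regions of the pair are shown because the paralogs moved apart. Each window spans 250 bases before to 50 bases after the transcript start in RefSeq on GRCm38.p6. Mbl1 lies at chr14:41151206-41151505 and Mbl2 at chr19:30232678-30232977, both on the plus strand. Capitals mark the longest run of bases that the windows have in common, 13 bases long, which begins 23 bases before the start in Mbl1 and 57 bases before it in Mbl2. A shared run is a description and was not tied to the difference in direction.
Mbl1: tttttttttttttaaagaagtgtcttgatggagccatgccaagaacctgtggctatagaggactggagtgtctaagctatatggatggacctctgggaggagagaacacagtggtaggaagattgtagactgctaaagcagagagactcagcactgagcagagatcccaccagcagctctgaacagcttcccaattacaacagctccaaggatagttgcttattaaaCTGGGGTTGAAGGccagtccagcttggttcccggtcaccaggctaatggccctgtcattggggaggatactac
Mbl2: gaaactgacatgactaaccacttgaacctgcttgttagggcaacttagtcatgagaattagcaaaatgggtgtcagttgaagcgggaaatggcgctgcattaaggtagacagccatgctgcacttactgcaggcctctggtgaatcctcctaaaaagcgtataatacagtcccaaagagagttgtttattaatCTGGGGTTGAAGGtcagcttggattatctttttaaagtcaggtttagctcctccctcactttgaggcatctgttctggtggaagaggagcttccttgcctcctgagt

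C1qa, C1qb and C1qc encode the chains of C1q, which starts the classical pathway and is made mainly by macrophages. None was called. C1qb had 51.3 to 96.6 CPM (median 79.5) in LPD livers and 78.0 to 121 CPM (median 83.2) in SPD livers. SPD liver 6 was the highest of the 12 for all 3 chains, and LPD livers 2 and 5 lay at the low end. The log2 fold changes were -0.09 ± 0.13 for C1qa, -0.26 ± 0.14 for C1qb and -0.25 ± 0.13 for C1qc (adjusted p 0.613, 0.166 and 0.129). Of 8 Kupffer cell and macrophage markers, 1 was higher (Marco) and 3 were lower (Cd68, Cd5l and Lyz2). Their summed level was 546 to 819 CPM in LPD livers and 700 to 1002 CPM in SPD livers, and none was at 0. The part of the macrophage share in the C1q levels was not tested. In bulk tissue, fewer cells of a type and less RNA per cell cannot be told apart.

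The initiating proteases cleave the central components once a recognition molecule has bound. Of 4 tested, C1ra and Masp2 rose, C1s1 fell and Masp1 was not called, at -0.043 ± 0.059 on the log2 scale (adjusted p = 0.601). C1ra and C1s1 encode the paired proteases of the C1 complex. C1ra had 193 to 228 CPM (median 202) in LPD livers and 148 to 198 CPM (median 165) in SPD livers. C1s1 had 408 to 509.8 CPM (median 448) in LPD livers and 482 to 583 CPM (median 538) in SPD livers. The groups overlapped for both. The log2 fold change was 0.30 ± 0.069 for C1ra and -0.24 ± 0.067 for C1s1 (adjusted p 0.00324 and 0.0103). Masp2, the main protease of the lectin pathway, was 145 to 201 CPM (median 154) in LPD livers and 133 to 142 CPM (median 138) in SPD livers. Its groups did not overlap, but LPD livers 2 and 5 stood well above the other LPD livers. The Masp2 log2 fold change was 0.27 ± 0.079 (SE, adjusted p = 0.012). Without those livers it was 0.13, still called. The C1s1 call was lost when LPD liver 1 was counted as SPD. Reads of C1ra are uncertain, since 50.8% of its 50-base windows also occur in transcripts of other genes, mainly C1rb, and the share was 21.8% for C1s1, with C1s2.

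Most central components form the convertases and their products. C3, the component on which all pathways converge, rose, whereas Hc and C4a fell. C3 had 5102 to 7032 CPM (median 5690.4) in LPD livers and 3879.6 to 5615 CPM (median 4280.2) in SPD livers. LPD livers 2 and 5 were the highest, and SPD livers 3 and 6 lay within the LPD range. The change was 0.36 ± 0.11 (SE, adjusted p = 0.017). It was 0.24 without LPD livers 2 and 5 (adjusted p = 0.0899) and 0.37 in the livers of codes SP1 and LP4 alone (adjusted p = 0.0579), so the call was lost in both. Hc, which encodes the fifth component and hence the precursor of the anaphylatoxin released from it, had 401 to 564 CPM (median 457) in LPD livers and 493 to 665 CPM (median 571) in SPD livers. LPD livers 2 and 5 reached into the SPD range. Hc changed by a log2 fold of -0.28 ± 0.087 (SE, adjusted p = 0.0185). It was -0.22 with LPD liver 1 counted as SPD (adjusted p = 0.129). C4a had 7.06 to 8.97 CPM (median 7.61) in LPD livers and 9.74 to 17.2 CPM (median 12.2) in SPD livers. No LPD liver reached an SPD liver. Its paralog C4b, which was not called, had 878 to 1280 CPM (median 1069) in LPD livers and 1044 to 1316 CPM (median 1140) in SPD livers. The C4a change was -0.74 ± 0.12 (SE, adjusted p = 0.000223).

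C4b, Cfb and C2, which supply the convertase subunits of the classical and alternative pathways, were not called. Cfb had 913 to 1200.4 CPM (median 1014) in LPD livers and 861 to 1085 CPM (median 994) in SPD livers. Fold changes on the log2 scale were -0.12 ± 0.095 for C4b, 0.10 ± 0.08 for Cfb and -0.013 ± 0.054 for C2 (adjusted p 0.318, 0.363 and 0.868). Some of these reads could be split between genes: C4a shares 30.6% of its 50-base windows, mainly with C4b. The share was 73.0% for Cfb and 38.7% for C2, both with the readthrough transcript Gm20547.

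The membrane attack complex is the pore assembled from the terminal components. Of 5 tested members, 1 fell and 4 were not called. C6, which joins the complex right after the fifth component is cleaved, had 19.6 to 30.2 CPM (median 25.1) in LPD livers and 48.6 to 71.3 CPM (median 54.8) in SPD livers. Every LPD liver lay below every SPD liver, and the lowest was LPD liver 5. The C6 log2 fold change was -1.17 ± 0.11 (SE, adjusted p = 1.04e-06). This was the lowest adjusted p of any member. C9, which forms the ring of the pore, is not annotated to the map in the deposited matrix and is given here as a gene outside it. C9 had 44.0 to 92.9 CPM (median 53.9) in LPD livers and 186 to 254 CPM (median 230.3) in SPD livers. Again the groups were fully apart, and LPD liver 6 was the highest of its diet. The C9 change was -1.91 ± 0.15 (SE, adjusted p = 3.36e-07). The fitted level in SPD livers was 3.77-fold that in LPD livers for C9 and 2.25-fold for C6.

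Other pore genes were not called. C8a had 125 to 244 CPM (median 137) in LPD livers and 95.1 to 200.3 CPM (median 139) in SPD livers. C8b had 41.5 to 68.4 CPM (median 47.2) in LPD livers and 33.2 to 55.9 CPM (median 38.8) in SPD livers. LPD liver 2 was far above the rest of its diet for C8b. On the log2 scale, changes were 0.075 ± 0.18 for C8a, 0.25 ± 0.13 for C8b, 0.21 ± 0.10 for C8g and -0.46 ± 0.32 for C7 (adjusted p 0.774, 0.14, 0.108 and 0.274). Without SPD liver 3, C8b was called higher, at 0.36 (adjusted p = 0.0297). C6 and C7 lie near each other at chr15:4727175-4814967 and chr15:4988762-5063740 on mm10, and C9 lies at chr15:6445327-6498751. C7 was at a low level, 0.870 to 2.51 CPM (median 1.54) in LPD livers and 0.987 to 3.87 CPM (median 2.06) in SPD livers.

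**Figure D2:**
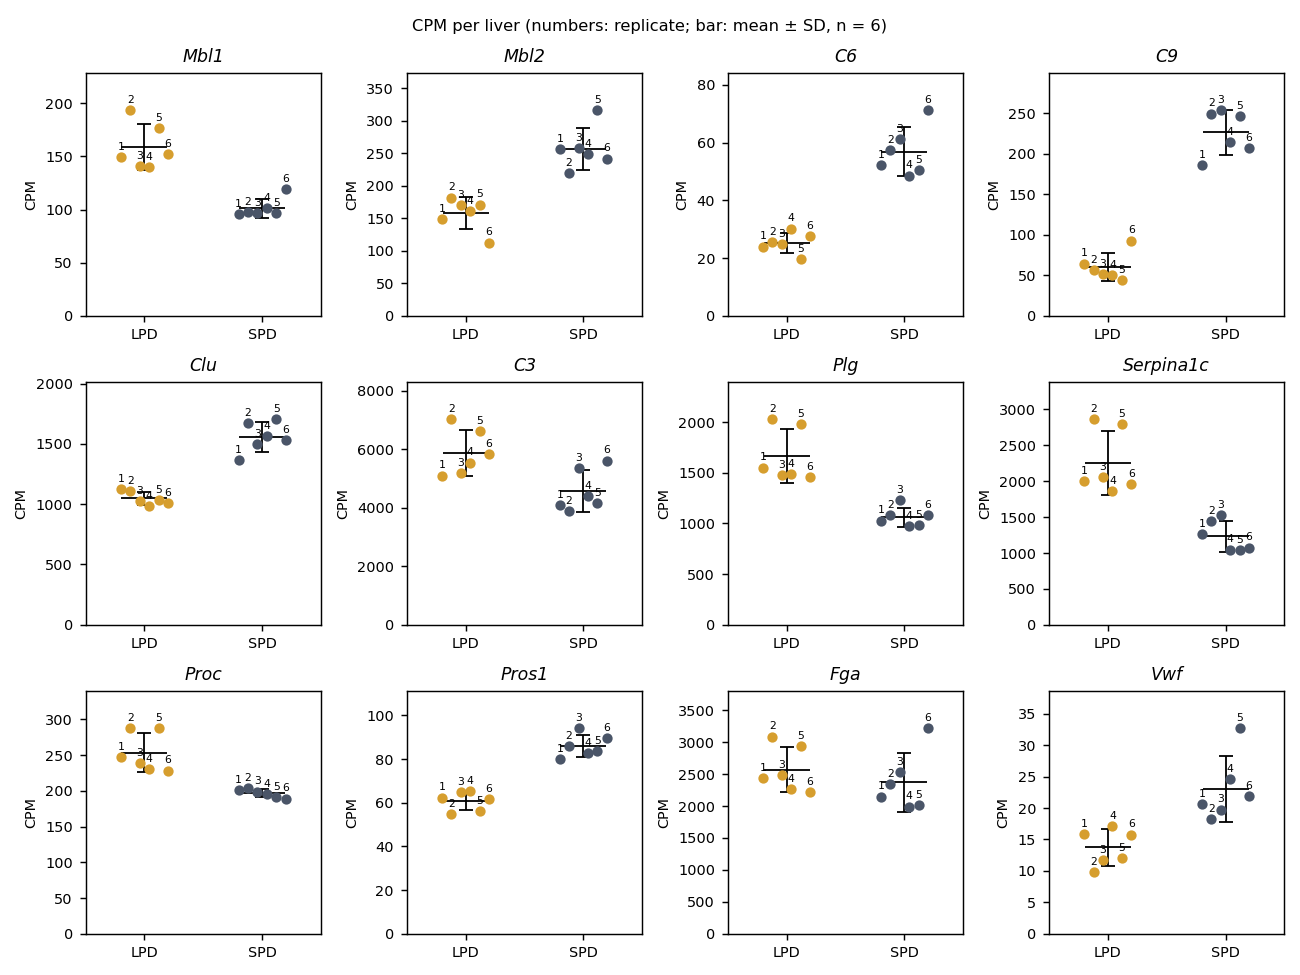
Level in CPM of 12 genes in each liver, with the replicate number over each point, the mean as a wide bar and the SD as the error bar (n = 6 per diet); the y axes start at 0. The diets are fully apart for Mbl1, Mbl2, C6, C9, Clu, Plg, Serpina1c, Proc, Pros1 and Vwf and overlap for C3 and Fga.

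Inhibitors keep complement off the body's own cells. Of 12 tested, 3 rose, 3 fell and 6 were not called. Clu, which encodes clusterin, a plasma chaperone that blocks pore assembly, had 984 to 1127 CPM (median 1028) in LPD livers and 1367 to 1705 CPM (median 1549) in SPD livers. Groups were fully apart. The Clu log2 fold change was -0.57 ± 0.065 (SE, adjusted p = 9.69e-06). C4bp, which encodes a chain of the C4b-binding protein, had 729 to 896 CPM (median 769) in LPD livers and 554 to 645 CPM (median 592) in SPD livers. LPD livers lay above SPD livers without overlap. The change was 0.40 ± 0.069 (SE, adjusted p = 0.000351).

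Serping1, which encodes the C1 inhibitor, was not called, at 0.11 ± 0.10 (adjusted p = 0.409). Cfi, the protease that inactivates C3b, was 431 to 560.4 CPM (median 455) in LPD livers and 504 to 608 CPM (median 578) in SPD livers, and Cd55, a membrane inhibitor, was 13.9 to 19.8 CPM (median 16.0) in LPD livers and 17.3 to 22.1 CPM (median 20.05) in SPD livers. Cfi had a log2 fold change of -0.23 ± 0.079 (SE, adjusted p = 0.0272). For Cd55 it was -0.27 ± 0.082 (SE, adjusted p = 0.0147). Vtn, which encodes vitronectin, measured 1138 to 1567 CPM (median 1259.9) in LPD livers and 1049.9 to 1230.1 CPM (median 1139) in SPD livers. Vtn had a log2 fold change of 0.21 ± 0.079 (SE, adjusted p = 0.0459). The Vtn call was lost in 16 of the 21 alternatives, among them those without SPD liver 1, 2, 4, 5 or 6 and without LPD liver 1, 2, 5 or 6. The Cfi call was lost in 9, among them those without SPD liver 2, 3 or 6 and without LPD liver 1, 3, 4 or 6. The Cd55 call was lost when LPD liver 1 counted as SPD and without LPD livers 2 and 5.

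Complement receptors sit mostly on leukocytes. Of the 4 tested, Itgb2, the beta chain of complement receptor 3, was the one called. Itgb2 had 14.3 to 28.2 CPM (median 23.7) in LPD livers and 21.8 to 37.9 CPM (median 31.0) in SPD livers. LPD livers 2 and 5 were the lowest, and the remaining LPD livers lay within the SPD range. The change was -0.44 ± 0.17 (SE, adjusted p = 0.0488). It was -0.22 without LPD livers 2 and 5 (adjusted p = 0.198), and the call was lost in 10 of 21 alternatives. Without SPD livers 2, 3, 4 or 6, or LPD livers 2, 4, 5 or 6, left out singly, it was not called. Itgam, the alpha chain of that receptor, had a log2 fold change of -0.54 ± 0.22, C5ar1 one of -0.55 ± 0.22 and C3ar1 one of -0.21 ± 0.15 (adjusted p 0.0667, 0.06 and 0.295). Of 5 markers of lipid-associated macrophages, 3 were lower in LPD livers and none was higher (the Kupffer cell list is given with C1q). That list summed to 79.2 to 229 CPM in LPD livers and 311 to 608 CPM in SPD livers, and none of its markers was at 0 and its part in the receptor levels was not tested.

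Fibrinogen, the soluble precursor of fibrin, is built from chains encoded by Fga, Fgb and Fgg. None of the 3 was called, and all were among the most abundant members. Fga had 2217 to 3088 CPM (median 2461) in LPD livers and 1989 to 3219 CPM (median 2243) in SPD livers. Fgb had 2247 to 2812 CPM (median 2511) in LPD livers and 2005 to 3476 CPM (median 2142) in SPD livers. Fgg had 1556 to 2045 CPM (median 1724) in LPD livers and 1384 to 2403 CPM (median 1489) in SPD livers. SPD liver 6 was the highest of the 12 for each chain, and the other SPD livers lay below the highest LPD liver. The log2 fold changes were 0.12 ± 0.12 for Fga, 0.077 ± 0.12 for Fgb and 0.10 ± 0.13 for Fgg (adjusted p 0.473, 0.66 and 0.559). Over the 21 alternatives they ran from -0.011 to 0.22 for Fga, 0.0024 to 0.21 for Fgb and -0.0061 to 0.24 for Fgg. No chain was called in any alternative. Together the chains took 0.696 ± 0.0504% of all counts in LPD livers and 0.633 ± 0.157% in SPD livers (SD, n = 6 each).

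The genes stand side by side at chr3:83007724-83015049 (Fgg), chr3:83026076-83033627 (Fga) and chr3:83040141-83049863 (Fgb), and their start regions are shown because neighbouring genes of 1 protein had like fold changes. The RefSeq windows on GRCm38.p6 are chr3:83025903-83026202 for Fga and chr3:83007474-83007773 for Fgg on the plus strand, and chr3:83049814-83050113 for Fgb on the minus strand. Capitals mark matches, on either strand, to letters of liver and acute phase motifs: TTGCNNAA for C/EBP and TTCNNNGAA for STAT. In Fga these began 135 bases (C/EBP) and 234 bases (STAT) before the start. In Fgb a C/EBP match began 80 bases and a STAT match 162 bases before it, and Fgg held no match.
Fga: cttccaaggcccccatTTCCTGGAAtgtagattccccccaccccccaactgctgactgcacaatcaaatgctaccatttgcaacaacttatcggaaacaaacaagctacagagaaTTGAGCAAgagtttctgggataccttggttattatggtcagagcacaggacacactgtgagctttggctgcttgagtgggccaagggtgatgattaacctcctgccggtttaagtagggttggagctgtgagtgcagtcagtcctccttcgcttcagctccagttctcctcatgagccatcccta
Fgb: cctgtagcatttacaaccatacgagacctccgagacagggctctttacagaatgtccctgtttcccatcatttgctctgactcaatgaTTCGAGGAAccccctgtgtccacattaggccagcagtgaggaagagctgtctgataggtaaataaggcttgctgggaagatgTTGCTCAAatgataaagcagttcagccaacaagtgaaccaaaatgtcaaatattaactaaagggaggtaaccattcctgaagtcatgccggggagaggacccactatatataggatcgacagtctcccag
Fgg: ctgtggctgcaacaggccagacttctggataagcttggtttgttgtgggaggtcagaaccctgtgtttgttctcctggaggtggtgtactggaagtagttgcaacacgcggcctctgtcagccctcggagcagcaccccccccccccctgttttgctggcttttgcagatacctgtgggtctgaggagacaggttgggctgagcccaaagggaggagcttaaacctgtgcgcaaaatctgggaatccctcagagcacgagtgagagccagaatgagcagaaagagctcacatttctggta

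Among the other factors, F5 rose while F8, Vwf and F13a1 fell. F5, the cofactor of factor Xa, had 716 to 865 CPM (median 781) in LPD livers and 579 to 705 CPM (median 613) in SPD livers. The groups did not overlap, with a log2 fold change of 0.33 ± 0.067 (SE, adjusted p = 0.0011). Vwf, which encodes the von Willebrand factor of endothelium and platelets, had 9.81 to 17.2 CPM (median 13.9) in LPD livers and 18.3 to 32.7 CPM (median 21.3) in SPD livers. SPD liver 5 was the highest and LPD liver 2 the lowest, without overlap between diets. The change was -0.74 ± 0.15 (SE, adjusted p = 0.00131). F8, which in liver is made by sinusoidal endothelium, had 17.3 to 24.1 CPM (median 23.4) in LPD livers and 23.9 to 33.1 CPM (median 27.8) in SPD livers. Its log2 fold change was -0.34 ± 0.10 (SE, adjusted p = 0.0125). The F8 call was lost when LPD liver 1 was counted as SPD.

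F13a1, the transglutaminase chain of factor XIII known from macrophages and platelets, had 0.0402 to 0.592 CPM (median 0.270) in LPD livers and 0.485 to 2.57 CPM (median 0.917) in SPD livers. SPD liver 5 was far above the rest. The log2 fold change was -1.89 ± 0.46 (SE, adjusted p = 0.00454). In the livers of codes SP1 and LP4 alone it was -1.01 and no longer called. Of 6 sinusoidal endothelium markers, 2 were lower (Kdr and Cdh5), and their sum was 258 to 310 CPM in LPD livers and 305 to 339 CPM in SPD livers, with none at 0. Of 5 platelet markers, 2 were tested and none was called, Gp1bb had a median of 0 CPM in both diets, and the sum was 2.03 to 6.77 CPM in LPD livers and 4.31 to 5.34 CPM in SPD livers. Their part in the lower Vwf, F8 and F13a1 levels was not tested.

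F11, F12, F13b and F3 were not called. F12, the contact factor, had 365 to 419 CPM (median 410.4) in LPD livers and 369 to 390.4 CPM (median 379) in SPD livers. F11, which activates factor IX, had 19.8 to 25.4 CPM (median 23.0) in LPD livers and 18.8 to 24.3 CPM (median 21.5) in SPD livers. Diets overlapped for both. Log2 fold changes were 0.087 ± 0.05 for F12, 0.089 ± 0.07 for F11, 0.012 ± 0.061 for F13b and -0.016 ± 0.16 for F3, the tissue factor gene (adjusted p 0.18, 0.334, 0.897 and 0.946).

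Factors that need vitamin K carry a modified glutamate that binds calcium. Of 6, 2 rose, 1 fell and 3 were not called. Proc, which encodes the anticoagulant protease protein C, had 228 to 288 CPM (median 243) in LPD livers and 189 to 203 CPM (median 197) in SPD livers. Pros1, which encodes its cofactor protein S, had 54.9 to 65.2 CPM (median 61.9) in LPD livers and 79.8 to 94.2 CPM (median 84.7) in SPD livers. Both genes had diets fully apart, in opposite directions. The log2 fold change was 0.37 ± 0.066 for Proc and -0.50 ± 0.058 for Pros1 (adjusted p 0.000468 and 1.14e-05). Per kilobase, the ratio of Proc to Pros1 was 7.46 to 11.0 in LPD livers and 4.45 to 5.30 in SPD livers.

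F2, the prothrombin gene, had 1184 to 1487 CPM (median 1244) in LPD livers and 1121 to 1235 CPM (median 1172) in SPD livers. F2 was not called, with a log2 fold change of 0.16 ± 0.067 (SE, adjusted p = 0.0746). F7, which starts clotting together with tissue factor, had 34.0 to 49.3 CPM (median 37.6) in LPD livers and 29.1 to 37.2 CPM (median 33.6) in SPD livers. The change was 0.26 ± 0.092 (SE, adjusted p = 0.0317). Without LPD livers 2 and 5 it was 0.12 and not called, and the call was also lost without SPD liver 1, 2, 4 or 5 and without LPD liver 2 or 5 alone. F9, the factor lacking in haemophilia B, had 169 to 214 CPM (median 183) in LPD livers and 199.7 to 217 CPM (median 201) in SPD livers. F10, the protease that makes thrombin, had 225 to 310.5 CPM (median 244) in LPD livers and 238 to 272 CPM (median 262) in SPD livers. Neither F9 nor F10 was called, with log2 fold changes of -0.12 ± 0.062 and -0.0064 ± 0.082 (adjusted p 0.129 and 0.96). F9 was called lower without LPD liver 2, at -0.16, and without LPD livers 2 and 5, at -0.21 (adjusted p 0.0367 and 0.00712). F2 was called higher without LPD liver 6, at 0.19 (adjusted p = 0.0428). The diets overlapped for F2, F7, F9 and F10.

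All 3 tested genes of the contact and kinin system rose. Klkb1, which encodes plasma prekallikrein, had 166 to 221 CPM (median 196) in LPD livers and 124 to 175 CPM (median 146) in SPD livers. Kng1, which encodes kininogen, the source of bradykinin, had 1768 to 2193 CPM (median 2124) in LPD livers and 1636 to 1840.0 CPM (median 1741) in SPD livers. Kng2, its paralog, had 315 to 378 CPM (median 372) in LPD livers and 305 to 363 CPM (median 313) in SPD livers. Levels of the diets overlapped for all 3, and LPD liver 6 was the lowest LPD liver for both kininogen genes. The log2 fold changes were 0.43 ± 0.083 for Klkb1, 0.26 ± 0.065 for Kng1 and 0.18 ± 0.061 for Kng2 (adjusted p 0.000786, 0.00576 and 0.0291). The Kng2 call was lost in 11 of 21 alternatives, among them those without SPD liver 1, 2, 3 or 5 and without LPD liver 1, 3, 4 or 5, and the Kng1 call when LPD liver 1 counted as SPD. Kng1 shares 17.2% of its windows with Kng2, and Klkb1 shares 42.7% with other annotated transcripts. The bradykinin receptor genes Bdkrb1 and Bdkrb2 were too low to test, and Bdkrb1 had no counts.

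Clotting inhibitors and their cofactors held 12 tested genes, of which 5 rose, 1 fell and 6 were not called. The Serpina1 genes encode alpha-1-antitrypsin, an inhibitor chiefly of neutrophil elastase, in a mouse gene cluster. Serpina1c had 1861 to 2864 CPM (median 2030.4) in LPD livers and 1042 to 1532 CPM (median 1168) in SPD livers. Serpina1d had 1716 to 2629 CPM (median 1787) in LPD livers and 975 to 1599 CPM (median 1162) in SPD livers. Serpina1b had 5055 to 7065 CPM (median 5703) in LPD livers and 3986 to 5047 CPM (median 4492) in SPD livers. The diets were fully apart for these and for Serpina1a, and LPD livers 2 and 5 were the highest in all 4 genes. The log2 fold changes were 0.87 ± 0.13 for Serpina1c, 0.73 ± 0.14 for Serpina1d, 0.50 ± 0.085 for Serpina1a and 0.40 ± 0.091 for Serpina1b (adjusted p 0.000117, 0.000952, 0.000289 and 0.00304). Serpina1e had 11.5 to 16.2 CPM (median 14.6) in LPD livers and 13.3 to 18.6 CPM (median 14.9) in SPD livers. Its log2 fold change was -0.14 ± 0.10 (adjusted p = 0.294). The 5 genes took 1.27 ± 0.113% of all counts in LPD livers and 0.847 ± 0.108% in SPD livers (SD, n = 6 each).

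Values of single Serpina1 genes are uncertain, because reads can be split among near-identical copies. The share of 50-base windows found in transcripts of other genes was 74.2% for Serpina1c, 57.6% for Serpina1a, 50.9% for Serpina1d, 34.6% for Serpina1e and 29.5% for Serpina1b. The start regions of Serpina1a, Serpina1c and Serpina1e are shown because they are nearly the same sequence, although Serpina1a and Serpina1c rose and Serpina1e was not called. The RefSeq windows on GRCm38.p6 are chr12:103863570-103863869, chr12:103904901-103905200 and chr12:103956848-103957147, all on the minus strand. With the windows shifted for the best ungapped match, 94.9% of 294 bases were the same for Serpina1a and Serpina1c. For Serpina1a and Serpina1e it was 95.9% of 243 bases, and for Serpina1c and Serpina1e 95.2% of 249 bases. Capitals mark the longest run that all 3 hold, 63 bases, which begins 64 bases before the start of Serpina1a, 70 bases before that of Serpina1c and 121 bases before that of Serpina1e.
Serpina1a: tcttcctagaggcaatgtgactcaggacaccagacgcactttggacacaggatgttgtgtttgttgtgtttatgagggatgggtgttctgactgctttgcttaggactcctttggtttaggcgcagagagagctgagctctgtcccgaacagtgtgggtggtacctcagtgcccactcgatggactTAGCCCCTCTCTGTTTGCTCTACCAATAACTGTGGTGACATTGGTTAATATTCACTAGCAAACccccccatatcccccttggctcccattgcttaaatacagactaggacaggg
Serpina1c: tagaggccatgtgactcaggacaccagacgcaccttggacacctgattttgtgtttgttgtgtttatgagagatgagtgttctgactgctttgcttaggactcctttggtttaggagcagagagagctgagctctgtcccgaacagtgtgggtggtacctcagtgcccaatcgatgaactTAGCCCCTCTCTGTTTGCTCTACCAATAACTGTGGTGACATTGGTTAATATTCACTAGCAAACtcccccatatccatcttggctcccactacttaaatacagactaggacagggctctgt
Serpina1e: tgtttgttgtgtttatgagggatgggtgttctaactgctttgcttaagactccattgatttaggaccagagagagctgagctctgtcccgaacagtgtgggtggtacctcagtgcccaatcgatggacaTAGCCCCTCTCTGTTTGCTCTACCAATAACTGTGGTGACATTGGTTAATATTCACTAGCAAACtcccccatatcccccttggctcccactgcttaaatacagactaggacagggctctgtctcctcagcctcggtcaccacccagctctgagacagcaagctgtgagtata

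Serpinc1, which encodes antithrombin, the main inhibitor of thrombin, had 1635 to 2053 CPM (median 1794) in LPD livers and 1649 to 1946 CPM (median 1859) in SPD livers. It was not called, with a log2 fold change of -0.0068 ± 0.069 (SE, adjusted p = 0.949). Serpind1, which encodes heparin cofactor II, had 409.9 to 524 CPM (median 446) in LPD livers and 324 to 421 CPM (median 363) in SPD livers. The change was 0.33 ± 0.08 (SE, adjusted p = 0.00457). Tfpi, the tissue factor pathway inhibitor, known from endothelium, had 6.04 to 9.93 CPM (median 7.68) in LPD livers and 9.76 to 14.4 CPM (median 11.4) in SPD livers. Its log2 fold change was -0.55 ± 0.12 (SE, adjusted p = 0.00178). LPD liver 1 was the highest LPD liver for Tfpi and the diets overlapped. Thbd and Procr, the endothelial receptors for thrombin and protein C, had log2 fold changes of 0.0098 ± 0.20 and 0.10 ± 0.21, and Serpine2 and A2m, both at low levels, had -0.45 ± 0.33 and -0.90 ± 0.47 (adjusted p 0.975, 0.731, 0.294 and 0.146).

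Fibrinolysis genes held 1 member that rose and 2 that fell among 7 tested. Plg, which encodes plasminogen, the precursor of plasmin, had 1455 to 2029 CPM (median 1517) in LPD livers and 973 to 1229 CPM (median 1054) in SPD livers. The lowest LPD liver lay above the highest SPD liver, and LPD livers 2 and 5 were the highest. The log2 fold change was 0.64 ± 0.10 (SE, adjusted p = 0.000106). Per kilobase, the ratio of Plg to Fga was 0.557 to 0.632 in LPD livers and 0.316 to 0.459 in SPD livers. Plat, the tissue plasminogen activator gene, had 0.351 to 2.92 CPM (median 1.31) in LPD livers and 2.72 to 4.49 CPM (median 3.49) in SPD livers. LPD liver 1 was the highest LPD liver and overlapped with the lowest SPD liver. Plat changed by a log2 fold of -1.24 ± 0.33 (SE, adjusted p = 0.00757). In the livers of codes SP1 and LP4 alone its change was -0.77 and not called. Cpb2, a carboxypeptidase that slows the lysis of fibrin, had 209 to 297 CPM (median 256) in LPD livers and 314 to 373 CPM (median 333) in SPD livers. The diets were apart, with a log2 fold change of -0.39 ± 0.08 (SE, adjusted p = 0.00126).

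Serpinf2, the gene of the plasmin inhibitor, had 288 to 382 CPM (median 326) in LPD livers and 257 to 322 CPM (median 291) in SPD livers. Its log2 fold change was 0.18 ± 0.078 (SE, adjusted p = 0.0788). Without LPD liver 4 it was 0.22 and called higher (adjusted p = 0.0346). Plau and Plaur, the urokinase gene and its receptor gene, had -0.33 ± 0.15 and -0.48 ± 0.24 (adjusted p 0.0883 and 0.119).

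Protease-activated receptors let cells sense thrombin, and F2r was the one of 3 members tested. F2r had 27.4 to 49.9 CPM (median 46.1) in LPD livers and 56.6 to 66.3 CPM (median 59.4) in SPD livers. LPD livers 2 and 5 were the lowest. Without overlap between diets, the log2 fold change was -0.55 ± 0.13 (SE, adjusted p = 0.00278). It was -0.35 without those livers, still called. F2rl1, a receptor of the same family outside the map, measured 0 to 1.24 CPM (median 0.984) in LPD livers and 0.728 to 3.66 CPM (median 3.28) in SPD livers, with a log2 fold change of -1.77 ± 0.48 (adjusted p = 0.00837).

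Higher and lower members were spread unevenly over the range of levels. Members with a mean of at least 100 CPM over the 12 livers were 40 in number, and 17 of them (42.5%) were higher and 6 (15%) lower in LPD livers. Among all 1401 genes at that level, 36.1% were higher and 22.3% lower. Of the 36 tested members under 100 CPM, 2 (5.56%) were higher and 11 (30.6%) lower, where 18.95% of all 12367 such genes were higher and 18.86% lower. This split was chosen after the values had been seen. On the scale of level per length, Serpina1b led the members with 3340 CPM per kilobase in LPD livers and 2539 in SPD livers. Serpina1c stood at 1658 CPM per kilobase in LPD livers and 906 in SPD livers, and C3 at 1147 in LPD livers and 893 in SPD livers.

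**Figure D3:**
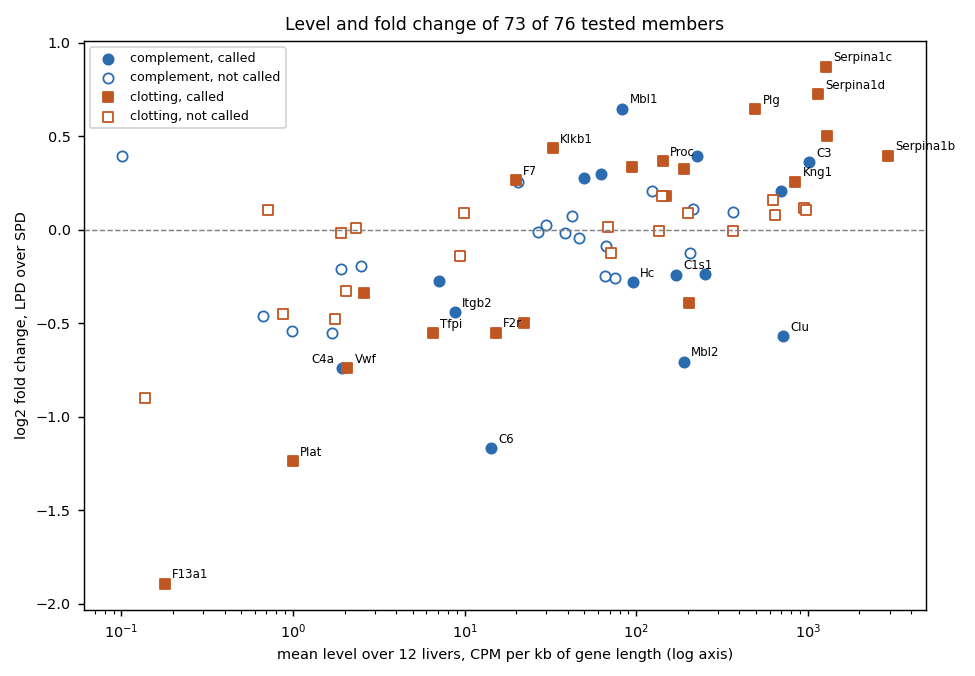
Mean level over the 12 livers in CPM per kilobase of gene length (log axis) against log2 fold change (LPD over SPD) for 73 of the 76 tested members; circles are complement, squares clotting, filled symbols called members, and names mark called members chosen by the naming rule. Called members at the far left, such as F13a1 (-1.89) and Plat (-1.24), lie below 0, and Serpina1b, Serpina1c and Serpina1d at the far right lie above it, while Clu (-0.57) is abundant and lies below.

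The transcripts of all members together took 4.63 ± 0.270% of counts in LPD livers and 3.83 ± 0.388% in SPD livers (SD, n = 6 each). LPD livers spanned 4.41% to 5.05% and SPD livers 3.48% to 4.32%, without overlap. Unlike CPM, these shares use library totals without TMM scaling. The TMM factor was 1.05 in LPD liver 6, the lowest LPD share, and 1.02 in SPD liver 6, the highest SPD share. The lack of overlap therefore describes unscaled shares only. Clotting members took 3.06 ± 0.200% in LPD livers and 2.40 ± 0.234% in SPD livers, again apart as unscaled shares. Within the clotting share, Serpina1a to Serpina1e took 1.27% in LPD livers and 0.847% in SPD livers. The fibrinogen chains, which were not called, took 0.696% and 0.633%. Complement members took 1.57 ± 0.106% in LPD livers and 1.43 ± 0.169% in SPD livers, and here SPD livers 3 and 6 lay within the LPD range.

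The livers of one diet differed among themselves in a way many members shared. LPD livers 2 and 5 were the top pair of LPD livers for 16 of the 19 higher members. Of the 17 lower members they were the lowest pair for 4, among them F2r and Itgb2, and the highest pair for 5. The same count over all genes was not made, so whether these ranks are particular to the members is not known. TMM factors were 0.972 and 0.945 in LPD livers 2 and 5, against 1.028 to 1.065 in the other LPD livers. The part of the scaling in these ranks was not tested. In the map of called members the strong colours of LPD livers 2 and 5 sit mostly in rows that rose. Among LPD livers the hepatocyte marker sum was highest in these, at 78729 and 84559 CPM, against 59504 to 67302 CPM in the other LPD livers. Alb alone had 66053 and 71208 CPM there. The other markers did not all follow: Apoa1 had 2877 and 3109 CPM in livers 2 and 5, against 3033 to 3890 CPM in the other LPD livers, and Serpina3k had 3431 and 3062 CPM, against 2443 to 3197 CPM. The part of this in the members' levels was not tested.

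**Figure D4:**
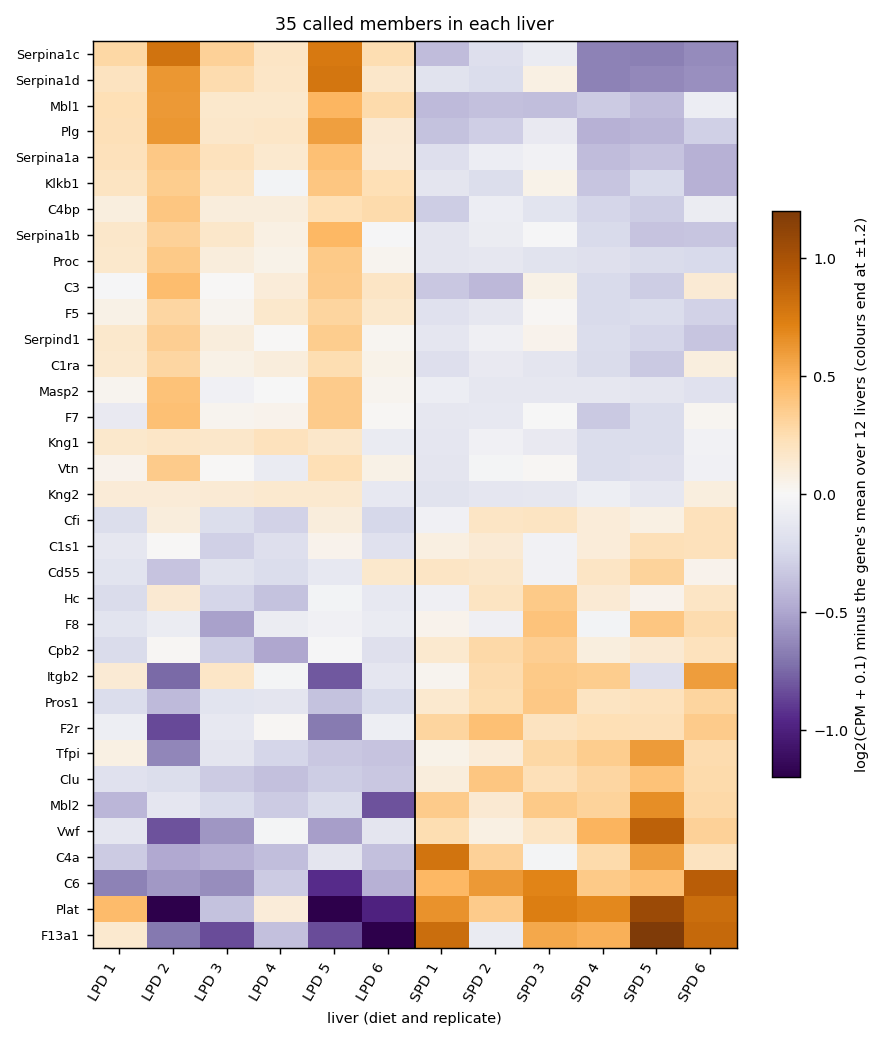
Level of 35 of the 36 called members in each liver as log2(CPM + 0.1) minus the gene's mean over the 12 livers; rows run from the highest to the lowest fold change, and the colour scale ends at ±1.2. LPD livers are left of the line and SPD livers right of it; the top 18 rows are higher in LPD livers and the lower 17 are lower.

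Start regions were available for 67 of the 89 members among 32851 RefSeq windows. The C/EBP letters TTGCNNAA occurred in 21 of the 67 (31.3%) and in 10.8% of all windows, and the STAT letters TTCNNNGAA in 11 (16.4%) and in 8.30% of all windows. HNF4 letters CAAAGNCCA were found for C1s1, C8g and Kng2, and in 1.98% of all windows. No motif match overlapped another in the fibrinogen windows. By call, C/EBP letters were in 7 of 15 higher, 2 of 11 lower and 8 of 29 uncalled members with a window. These are letter matches and were not tested against the direction of change. Serpina1a, Serpina1b, Serpina1d and Serpina1e, gene copies whose windows share sequence, were among the 21, so the matches are not all independent. The comparison with all windows was not limited to genes expressed in liver.

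Genes that serve the same proteins but stand outside the map were counted from lists. Of 5 genes of the vitamin K cycle and the protein Z axis, Vkorc1, which recycles vitamin K, rose and Vkorc1l1 fell. Vkorc1 had 67.3 to 84.3 CPM (median 69.2) in LPD livers and 49.1 to 60.4 CPM (median 52.8) in SPD livers. The change was 0.44 ± 0.066 (SE, adjusted p = 0.000107). Lman1 and Mcfd2, which form the receptor that exports factors V and VIII from the endoplasmic reticulum, both rose. Mcfd2 had 316 to 375 CPM (median 328) in LPD livers and 231 to 261 CPM (median 242) in SPD livers. The log2 fold change was 0.48 ± 0.056 for Mcfd2 and 0.40 ± 0.073 for Lman1 (adjusted p 1.21e-05 and 0.000535). The complement-related list had 10 tested genes, of which 3 rose, among them Apcs and Crp, and none fell. Apcs, which encodes serum amyloid P, a pentraxin that can bind C1q, had 509 to 656 CPM (median 543) in LPD livers and 125 to 201 CPM (median 140.0) in SPD livers. Its log2 fold change was 1.88 ± 0.12 (SE, adjusted p = 5.69e-08). Crp, the neighbouring pentraxin gene, had 0.49 ± 0.083 (adjusted p = 0.000284).

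The 13 members not tested were Serpina5, Bdkrb1, Bdkrb2, Serpinb2, F2rl2, F2rl3, Cd55b, Cfd, C1s2, C1rb, Cr2, Itgb2l and Zp3r. The highest mean over the 12 livers among them was 0.398 CPM for Serpina5. Bdkrb1 and Cd55b had no counts in any liver. Cfd, which encodes the adipose-derived factor D, averaged 0.191 CPM in LPD livers and 0.0236 CPM in SPD livers, too low for a test.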

How the data were processed

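Livers of 6 LPD and 6 SPD mice were profiled by bulk RNA-seq. Per the labels' protocols, total RNA came from snap-frozen tissue (TRIzol, DNase I) and libraries from a TruSeq kit. The deposited matrix holds the authors' expected counts (estimated counts per gene and library, not scaled), of which 17.1% to 18.9% of the nonzero values were not whole. The submitters' processing notes list TopHat, DESeq2 and the build mm10, with neither versions nor roles. Which program counted, and how it treated strand and reads matching several genes, is not given in the sources used here.

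Counts were rounded and tested in R 4.3.3 with edgeR 4.0.16. The filterByExpr function (minimum count 10, minimum total 15) kept 13768 genes. Libraries were scaled by TMM, diet was the only term of the quasi-likelihood fit, and p-values were adjusted by Benjamini and Hochberg over all tested genes. Fold changes are LPD over SPD. Their SE is the size of the log2 change over the root of the F statistic. CPM uses TMM-scaled totals, and CPM per kilobase the deposited gene length. DESeq2 1.42.0, limma 3.58.1 voom, other scalings, no filter, a replicate block, each liver left out, LPD liver 1 as SPD, livers of codes SP1 and LP4 alone, and LPD livers 2 and 5 left out were alternatives. The fit was tested on simulated counts. No library pair of a diet agreed within sampling noise. The labels name 6 mice per diet, so the p-values weigh the diet difference against the spread between mice. The fit had no term for the library code and treated livers of the same code as independent.

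Coordinates come from GENCODE M21, which uses the same GRCm38 assembly as mm10, and start windows from RefSeq on GRCm38.p6. Windows of 50 bases were compared with all GENCODE transcripts to find shared sequence. The members, role lists, marker lists and tests were chosen with earlier results of these data known. Named genes were every called member with an absolute log2 fold change of at least 0.5, the most abundant member of each role and a set of core factors. The other genes named were chosen after their values were seen. A few genes, members among them, are in the counts but are not reported here by name. Itgb2l is the most abundant member in neither system, at 0.253 CPM over the 12 livers.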

Additional observations from a re-analysis of the deposited data

Results flagged for a closer look

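Within each diet, the highest and lowest liver were compared with the other 5 by Dixon's test at its 95% critical value for 68 genes, which made 136 groups of 6 livers. A liver stood apart in 14 groups, and chance alone flags about 1 in 20. SPD liver 6 was high in 6 of these. It had 97.2 CPM of C1qa (62.5 to 71.9 CPM in the other SPD livers), 121 CPM of C1qb (78.0 to 88.7 CPM in the others) and 113 CPM of C1qc (75.0 to 86.8 CPM in the others). It also had 2403 CPM of Fgg (1384 to 1739 CPM), 119 CPM of Mbl1 (95.9 to 102 CPM) and 363 CPM of Kng2 (305 to 326 CPM).

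LPD liver 6 was low for both kininogen genes, with 1768 CPM of Kng1 (2107 to 2193 CPM in the other LPD livers) and 315 CPM of Kng2 (370.1 to 378 CPM in the others). LPD liver 2 was high for C8b, at 68.4 CPM (41.5 to 47.9 CPM), and low for Vkorc1l1, at 71.3 CPM (78.0 to 81.7 CPM). LPD liver 3 was low for F8, at 17.3 CPM (22.4 to 24.1 CPM). SPD liver 5 was high for F9, at 217 CPM (199.7 to 204 CPM), high for F13a1, at 2.57 CPM (0.485 to 1.04 CPM), and low for Hnf4a, at 391 CPM (412 to 424 CPM).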

How the results depend on the processing

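Limited to the livers of codes SP1 and LP4, 3520 genes were called, with 4 complement members higher and 5 lower and 5 clotting members lower (10 higher). The fewer livers are part of that setting's construction. Leaving out 1 liver at a time gave 4956 to 5456 called genes, 6 to 8 higher and 7 to 11 lower complement members, and 10 to 13 higher and 8 to 9 lower clotting members. Replicate numbers did not pair the livers: same-numbered livers correlated at -0.054 to 0.097 after removing diet means, and 1 of 6 numbers had its highest correlation with itself. A fit with the replicate block called 5230 genes, with 6 and 9 complement and 11 and 9 clotting members higher and lower, and lost the calls of Kng2 and Vtn. No scaling moved the median of all genes by over 0.1. Single genes were the same in 1302 gene and setting pairs, lost a call in 69, gained one in 5 and changed sign in 31.

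Sign changes were among members not called. Over the fits without 1 liver, the log2 fold change ran from -0.14 to 0.017 for C1qa, -0.040 to 0.015 for C2, -0.092 to 0.18 for C8a and -0.065 to 0.034 for F10. It ran from -0.025 to 0.041 for F13b and -0.042 to 0.027 for Serpinc1. With LPD liver 1 as SPD, F10 was 0.032 and Serpinc1 0.0040. With codes SP1 and LP4 alone, C1qa was 0.065, F10 0.0052 and F13b -0.027. Upper quartile scaling gave F13b -0.0036. Without LPD livers 2 and 5, C1qa was 0.067, C8a -0.066, F13b -0.073, Fga -0.011, Fgg -0.0061 and Serping1 -0.017. The cause was not tested.

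Genes under about 1 CPM, such as F13a1, rest on few counts. Transcript levels do not give plasma protein levels or activity.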

Other observations

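Transcription factors known to drive liver genes were counted from a list of 12, all tested. Of these, 5 were higher in LPD livers, among them Hnf4a, Onecut1, Foxa2 and Nr1h4, and 1 was lower (Stat3). The other 6, among them Cebpa, Cebpb and Cebpd, were not called. Higher genes made up 41.7% of this list and lower genes 8.33%, against 20.7% and 19.2% of all tested genes. Stat3, which carries the acute phase signal of interleukin 6, had 69.7 to 78.1 CPM (median 73.3) in LPD livers and 83.5 to 129 CPM (median 100.03) in SPD livers, with a log2 fold change of -0.48 ± 0.09 (SE, adjusted p = 0.000687). The diets did not overlap for Stat3.

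Acute phase proteins outside the map did not move one way either. Of 13 tested, 3 were higher (Saa1, Saa2 and Itih4) and 3 were lower (Orm1, Orm2 and Cp). The other 7, among them Hp and Hpx, were not called. Higher genes made up 23.1% of this list and lower genes 23.1%, against 20.7% and 19.2% of all tested genes. Orm1, which encodes an alpha-1-acid glycoprotein, had 278 to 593 CPM (median 468) in LPD livers and 789 to 1003 CPM (median 855) in SPD livers, with a log2 fold change of -0.93 ± 0.14 (SE, adjusted p = 8.16e-05). Itih4, an inhibitor heavy chain gene, had 2224 to 3934 CPM in LPD livers and 1225 to 2124 CPM in SPD livers, with a log2 fold change of 0.84 ± 0.16 (SE, adjusted p = 0.000849). The genes of both lists were given by counts, with examples chosen after their values were seen.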
